A study of Mus musculus with 18 samples.

Results

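The genes described are Fos, Fosl1, Fosl2, Jun, Junb, Jund, Egr1 and Ier2, the AP-1 subunits and immediate early transcription regulators that were found by symbol in the authors' deposited table of folds. They are 8 of its 12205 genes, and all 8 have a value in each of its 12 fold columns. The cells were astrocytes in primary culture, thawed shortly before use, from mice carrying Eif2b5-R132H on both alleles. Eif2b5 is the gene of the catalytic subunit of eIF2B, and the mice serve as a model of vanishing white matter disease. The treated groups received the inflammatory cytokines TNFα (20 ng/ml) and IL-1β (0.25 ng/ml) for the last 24 hr or the last 48 hr of a 120 hr culture, and the untreated group received neither. Each of these 3 conditions was measured by RNA-seq and by Ribo-seq in 3 libraries, which makes 18 libraries in 6 groups, all of mutant cells. The WT folds come from the same table, but their libraries are not among these 18, so genotype and set of libraries cannot be told apart.

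AP-1 is a dimer of basic leucine zipper proteins. Jun proteins pair with each other or with Fos proteins, whereas Fos proteins need a Jun partner to bind DNA. Fos, Jun, Junb, Egr1 and Ier2 are classic immediate early genes, whose transcription starts within minutes of a stimulus without new protein synthesis and usually fades soon after. TNFα and IL-1β reach these genes through the JNK, p38 and ERK kinases and through NF-kB. In astrocytes, AP-1 takes part in the transcription of cytokines, chemokines and matrix proteases.

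Every value below is a log2 fold of treated over untreated cells within a genotype, as the authors deposited it, unless it is named as a difference or a linear fold. mRNA is the RNA-seq fold, RPF the fold of ribosome-protected fragments of 26 to 34 nt, and RD the fold of ribosome density. The computation of RD was not given in the sources used here. Each gene has 1 fold per comparison, pooled over libraries, so the table gives no value per library, no error, no level and no depth, and no gene could be tested. Values at or beyond a log2 fold of 1 were counted as a description beside the share of all genes there. The 24 hr and 48 hr folds of a genotype share their untreated libraries and are set side by side only. The libraries of each group are labelled batch A, B and C, and all 6 groups share these batches, but the pooled folds keep no value per batch. All 10 astrocyte markers examined had a fold in the table, against 2 of 9 microglia, 5 of 9 oligodendrocyte lineage, 4 of 8 neuron, 4 of 7 endothelium and 9 of 9 fibroblast and mural markers. In bulk samples a change in the share of one cell type and a change in RNA per cell cannot be told apart. Mutant mRNA folds at 24 hr ran between -2.16 and 1.99 for the astrocyte markers, with a median of -0.57, and between -2.81 and 4.6 for the fibroblast and mural markers, with a median of 0.16. They ran between -3.29 and 1.86 for endothelium, -2.59 and 0.98 for neurons and -1.17 and 1.73 for the oligodendrocyte lineage, and were 1.16 and 1.89 for microglia. The part of these markers in the results was not tested.

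In the mutant astrocytes the response of the group was concentrated in Junb and Fosl1. Junb, a Jun family subunit that is a weaker activator than Jun, and Fosl1, which encodes the Fos family subunit FRA1, were the 2 of 8 genes with an mRNA fold of at least 1 at each time. Over all genes the share there was 7.73% at 24 hr and 8.96% at 48 hr. Fosl2 and Ier2 stood between 0.5 and 1 at each time and Jun at 24 hr alone, Egr1 and Jund stood nearer to 0, and Fos, the founding member of the family, was the single gene of the 8 below 0 in the mutant at each time. The median of the 8 genes was 0.67 at 24 hr and 0.42 at 48 hr, against medians of 0.03 and 0.04 over all genes. With the median of genes of similar GC content subtracted, the 48 hr median of the 8 genes was 0.10, Junb and Fosl1 stood at 2.67 and 2.62, and Egr1 and Jund stood below 0, at -0.15 and -0.36. The order at 24 hr ran from Junb and Fosl1 through Fosl2, Ier2, Jun, Egr1 and Jund to Fos. With no error on any fold, neighbours in that order cannot be separated.

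**Figure D1:**
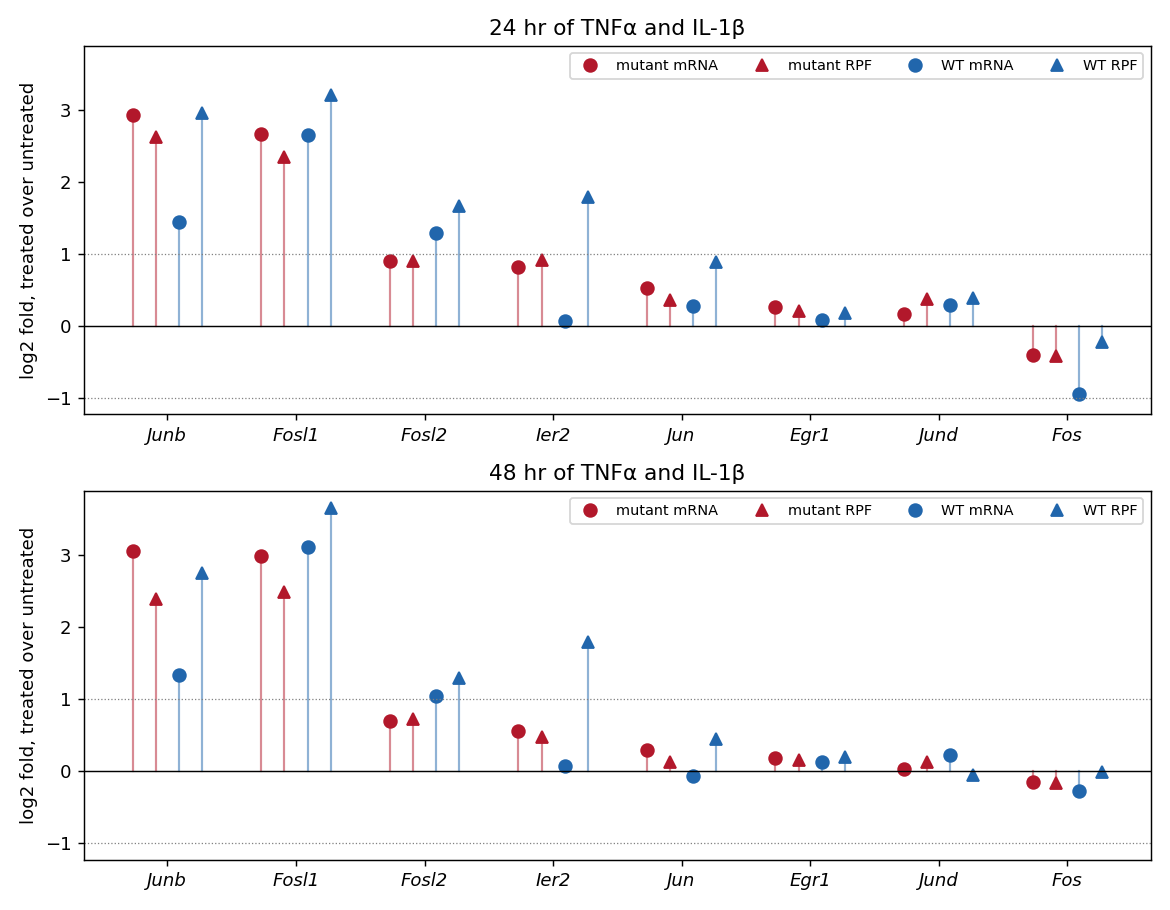
Log2 folds of treated over untreated cells for the 8 genes at 24 hr (top) and 48 hr (bottom), with 1 point per gene, genotype and measure: mutant mRNA (red circles), mutant RPF (red triangles), WT mRNA (blue circles) and WT RPF (blue triangles). Dotted lines mark a log2 fold of 1 in either direction. Junb and Fosl1 stand above the upper line in every column, and Ier2 stands above it only in the WT RPF columns.

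Among the Fos family genes, Fosl1 was the one with a strong response. The authors' deposited table put its mutant mRNA at 2.67 and 2.99 at the 2 times and its mutant footprints at 2.35 and 2.49. In linear terms the mutant mRNA was 6.35 and 7.94 times the untreated level. Of all genes, 2.72% had a larger mutant mRNA fold at 24 hr. The authors' deposited table gave WT mRNA folds of 2.65 and 3.12 and WT RPF folds of 3.21 and 3.66. The mRNA folds of Fosl1 differed between genotypes by 0.01 at 24 hr and -0.13 at 48 hr (mutant minus WT), and its RPF folds by -0.86 and -1.17. Less the median of genes of similar GC content, the mRNA differences of Fosl1 were -0.48 and -1.0. The exons of Fosl1 (chr19:5447547-5455946, plus strand, GRCm38) share 1163 bases with those of Ccdc85b on the opposite strand. The RNA kit keeps the strand, but use of it in the counting was not given in the sources used here. The authors' deposited table gave Ccdc85b mutant mRNA folds of -0.06 at 24 hr and 0.87 at 48 hr, and mutant RPF folds of -0.31 and -0.32. Its WT mRNA folds were -1.62 and -2.03, and its WT RPF folds were -0.44 and -0.09. The part of this overlap in the Fosl1 values was not tested.

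Fosl2 (chr5:32135801-32157842, plus strand), which encodes FRA2 and like Fosl1 lacks the transactivation domain that Fos has, was up in mRNA and footprints at similar sizes in the mutant. The authors' deposited table gave mutant mRNA folds of 0.90 at 24 hr and 0.69 at 48 hr, and mutant RPF folds of 0.90 and 0.72. Its WT mRNA folds in the authors' deposited table were 1.29 and 1.04, and its WT RPF folds were 1.66 and 1.30. All 4 mutant values were below 1 and all 4 WT values above it. Fos (chr12:85473890-85477273, plus strand) showed no such fold. Its mutant mRNA folds in the authors' deposited table were -0.41 at 24 hr and -0.15 at 48 hr, with mutant RPF folds of -0.42 and -0.16. The WT mRNA folds of Fos in the authors' deposited table were -0.95 and -0.28, and the WT RPF folds were -0.22 and -0.01. All 8 values lay below 0, and of these the WT mRNA fold at 24 hr was the farthest from it.

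Among the Jun family genes, Junb (chr8:84974484-84978718, minus strand) stood apart. The authors' deposited table gave Junb mutant mRNA folds of 2.93 at 24 hr and 3.06 at 48 hr, and mutant RPF folds of 2.63 and 2.39. The authors' deposited table gave WT mRNA folds of 1.45 and 1.34 and WT RPF folds of 2.96 and 2.76. Junb mRNA was therefore 7.62 and 8.36 times the untreated level in the mutant and 2.74 and 2.53 times in WT, whereas its footprints were 6.18 and 5.24 times in the mutant and 7.78 and 6.75 times in WT. The genotypes differed in the mRNA fold by 1.48 and 1.73, and in the RPF fold by -0.33 and -0.37 (mutant minus WT). Only 0.426% of genes at 24 hr and 0.803% at 48 hr had a larger mRNA difference.

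Jun (chr4:95049034-95052222, minus strand), the strongest activator of its family, had small folds. The authors' deposited table gave Jun mutant mRNA folds of 0.52 and 0.29 and mutant RPF folds of 0.36 and 0.12, against WT mRNA folds of 0.27 and -0.07 and WT RPF folds of 0.89 and 0.44. Jund (chr8:70698949-70700616, plus strand), the broadly and constitutively expressed family member, had mRNA and RPF folds under 0.5 in every column. The authors' deposited table gave Jund mutant mRNA folds of 0.16 and 0.03 and mutant RPF folds of 0.37 and 0.12, against WT mRNA folds of 0.29 and 0.22 and WT RPF folds of 0.39 and -0.06. The exons of Jun and Jund also overlap transcripts of the opposite strand, Junos by 232 bases and Gm11175 by 877 bases.

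The other immediate early regulators split. Egr1 (chr18:34859823-34864984, plus strand), a zinc finger factor that binds GC-rich sites, had small mRNA and RPF folds. The authors' deposited table gave 0.26 and 0.18 for its mutant mRNA and 0.20 and 0.16 for its mutant RPF, against WT mRNA folds of 0.08 and 0.13 and WT RPF folds of 0.18 and 0.20. All 8 of these values lay between 0 and 0.5. Ier2 (chr8:84661331-84662852, minus strand), which encodes a small nuclear protein, showed a difference between the measures. Its mutant mRNA folds in the authors' deposited table were 0.82 and 0.55 and its mutant RPF folds 0.91 and 0.48. For WT the authors' deposited table gave an mRNA fold of 0.07 and an RPF fold of 1.79 at each time. The Ier2 footprints were thus 1.88 and 1.39 times the untreated level in the mutant, against 3.46 and 3.45 times in WT.

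Counted over the 8 genes, mutant RPF folds of at least 1 were those of Junb and Fosl1, 2 of 8 at each time, against 7.32% of all genes at 24 hr and 7.43% at 48 hr. In WT, 3 of 8 genes (Fosl1, Junb and Fosl2) had an mRNA fold of at least 1 at each time, against 7.54% and 8.11% of all genes. The WT RPF folds reached 1 in 4 of 8 genes at each time, the same 3 and Ier2, against 7.87% and 8.13% of all genes. The median RPF fold of the 8 genes was 0.64 at 24 hr and 0.32 at 48 hr in the mutant, and 1.28 and 0.87 in WT.

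The folds of ribosome density went opposite ways in the 2 genotypes for most of the 8 genes. In the mutant, 6 of 8 genes had an RD fold below 0 at each time, where 48.5% of all genes at 24 hr and 45.4% at 48 hr lay below 0. In WT, 8 of 8 genes at 24 hr and 7 of 8 at 48 hr had an RD fold above 0, where 47.2% and 45.8% of all genes lay above 0. The median RD fold of the 8 genes was -0.18 and -0.38 in the mutant and 0.60 and 0.49 in WT. Taken instead as RPF minus mRNA, the median density folds were -0.04 at each time in the mutant and 0.59 and 0.39 in WT. By that measure 5 and 6 of 8 genes lay below 0 in the mutant, where 54.3% and 54.4% of all genes did. In WT 8 and 7 of 8 lay above 0, where 52.2% and 50.3% of all genes did. A mutant RD fold of -1 or below was present in 0 of 8 genes at 24 hr and in 1 of 8, Junb, at 48 hr, against 1.1% and 1.24% of all genes. A WT RD fold of at least 1 was present in 1 of 8 genes, Ier2, at each time, against 1.79% and 2.85% of all genes.

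Junb had the lowest mutant RD folds of the 8. The authors' deposited table gave it -0.78 at 24 hr and -1.20 at 48 hr in the mutant, against 0.66 and 0.99 in WT. Of all genes, 1.79% at 24 hr and 0.778% at 48 hr had a lower mutant RD fold. Ier2 had the highest WT RD folds of the 8. In the authors' deposited table its RD fold was -0.16 and -0.68 in the mutant, against 1.66 and 1.49 in WT, and 0.246% of genes had a higher WT RD fold at 24 hr. For Fosl1 the authors' deposited table gave RD folds of -0.21 and -0.43 in the mutant, against 0.67 and 0.55 in WT. Jun and Fos had the same signs. The authors' deposited table gave Jun RD folds of -0.15 and -0.13 in the mutant, against 0.55 and 0.42 in WT. Fos had -0.21 and -0.36 in the mutant, against 0.18 and 0.44 in WT, in the authors' deposited table. Fosl2 and Jund were the 2 genes with mutant RD folds above 0. In the authors' deposited table Fosl2 had 0.06 and 0.13 in the mutant, against 0.32 and 0.20 in WT, and Jund had 0.31 and 0.19 in the mutant, against 0.15 and -0.36 in WT.

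For Egr1 the RD fold depended on how it was taken. The authors' deposited table gave RD folds of -0.30 and -0.40 in the mutant, against 0.99 and 0.56 in WT, while the RPF fold minus the mRNA fold was -0.07 and -0.02 in the mutant, against 0.10 and 0.07 in WT. In WT at 24 hr the RD fold thus exceeded the RPF minus mRNA difference by 0.89, and 0.377% of genes lay as far or farther from it, where the median absolute distance over all genes was 0.06. For Junb both measures put the mutant below WT, with RPF minus mRNA at -0.30 and -0.67 in the mutant, against 1.51 and 1.42 in WT. The RD fold of Junb less RPF minus mRNA was -0.85 in WT at 24 hr, where 0.459% of genes lay as far or farther. In the mutant it was -0.47 at 24 hr and -0.52 at 48 hr. By RPF minus mRNA, 11.8% and 4.34% of genes had a lower mutant value than Junb. For Ier2 both measures also put the mutant below WT, with RPF minus mRNA at 0.09 and -0.07 in the mutant, against 1.72 at each time in WT. The RD fold less RPF minus mRNA was -0.61 for Ier2 in the mutant at 48 hr, and -0.55 for Fos in WT at 24 hr.

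**Figure D2:**
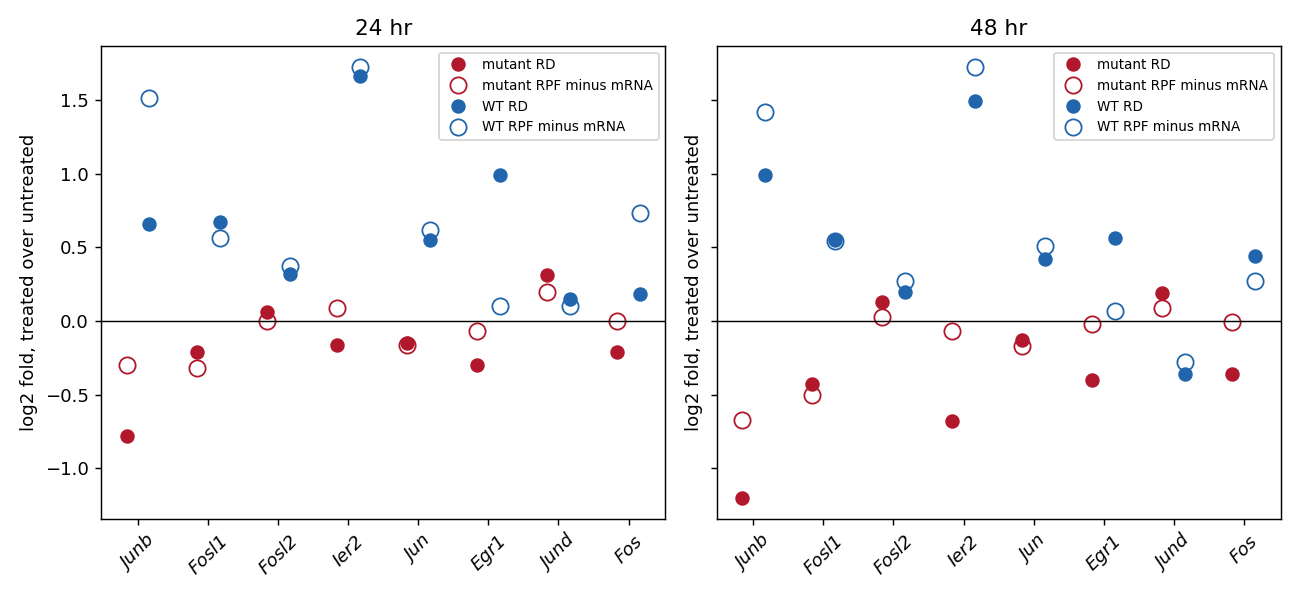
Ribosome density of the 8 genes at 24 hr (left) and 48 hr (right): the authors' RD fold (filled circles) and the RPF fold minus the mRNA fold (open circles), in log2, for the mutant (red) and WT (blue). WT points stand above mutant points for all genes but Jund, and for Egr1 the open circles of both genotypes lie close to 0.

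The difference in RD fold between genotypes (mutant minus WT) was -1.81 at 24 hr and -2.17 at 48 hr for Ier2, -1.43 and -2.19 for Junb, and -1.29 and -0.96 for Egr1. A difference of -1 or below was present in these 3 of 8 genes at 24 hr, against 2.93% of all genes, and in 2 of 8 (Junb and Ier2) at 48 hr, against 7.74%. The difference was -0.88 and -0.98 for Fosl1, -0.70 and -0.56 for Jun, -0.39 and -0.80 for Fos, -0.26 and -0.07 for Fosl2, and 0.16 and 0.54 for Jund. The all-gene median of this difference was 0.07 at 24 hr and 0.12 at 48 hr. For the mRNA fold, a difference of at least 1 was present in 1 of 8 genes, Junb, at each time, against 1.6% and 7.38% of all genes. For the RPF fold, a difference of -1 or below was present in 2 of 8 genes at 48 hr, Ier2 at -1.31 and Fosl1 at -1.17, against 0.885% of all genes.

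These differences moved with the GC content of the transcript over all genes. The GC content of the 8 genes ran from 51.9% in Fos and 53.1% in Fosl2 to 67.1% in Jund. Their median transcript GC content was 57.9%, against 50.3% over 11992 genes with an annotated coding transcript, and 3 of 8 (Jund, Junb and Ier2) had at least 60%, against 4.85% of genes. Genes of at least 60% GC had a median RD difference of -0.59 at 24 hr and -1.0 at 48 hr, and a median mRNA difference of 0.60 and 1.05. Within each genotype their median RD fold was 0.46 and 0.61 in WT, and -0.12 and -0.38 in the mutant. The medians of genes of at least 60% GC thus also had opposite signs in the 2 genotypes. In the GC class of Fos the median RD fold was -0.02 and -0.03 in WT, and 0.04 and 0.01 in the mutant. After subtraction of the median of the gene's own GC class, the RD difference was -1.22 at 24 hr and -1.17 at 48 hr for Ier2, -0.84 and -1.18 for Junb, and -0.93 and -0.38 for Egr1. It was -0.38 and -0.20 for Fosl1, -0.51 and -0.19 for Jun, -0.43 and -0.81 for Fos, -0.26 and 0.0 for Fosl2, and 0.76 and 1.55 for Jund. The same subtraction left an mRNA difference of 0.87 and 0.67 for Junb, 0.15 and -0.57 for Ier2, -0.22 and -0.65 for Egr1, and -0.73 and -1.24 for Jund. It left -0.48 and -1.0 for Fosl1, -0.47 and -0.48 for Fosl2, -0.01 and -0.08 for Jun, and 0.48 and 0.09 for Fos, so the mRNA difference was above 0 for Junb and Fos alone at both times. In the highest GC class, which holds Ier2, Junb and Jund, the 10th percentile of the RD difference was -1.16 at 24 hr and -1.75 at 48 hr. Ier2 and Junb lay under it at both times, Egr1 and Jun lay under that of their own class at 24 hr and Fos at 48 hr, and Jund lay above the 90th percentile of its class, 0.0 and -0.16, at both times. Junb, Ier2, Jun and Jund consist of a single exon, as do 1.93% of genes. The other 227 single-exon genes had a median RD difference of -0.04 at 24 hr and 0.03 at 48 hr.

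**Figure D3:**
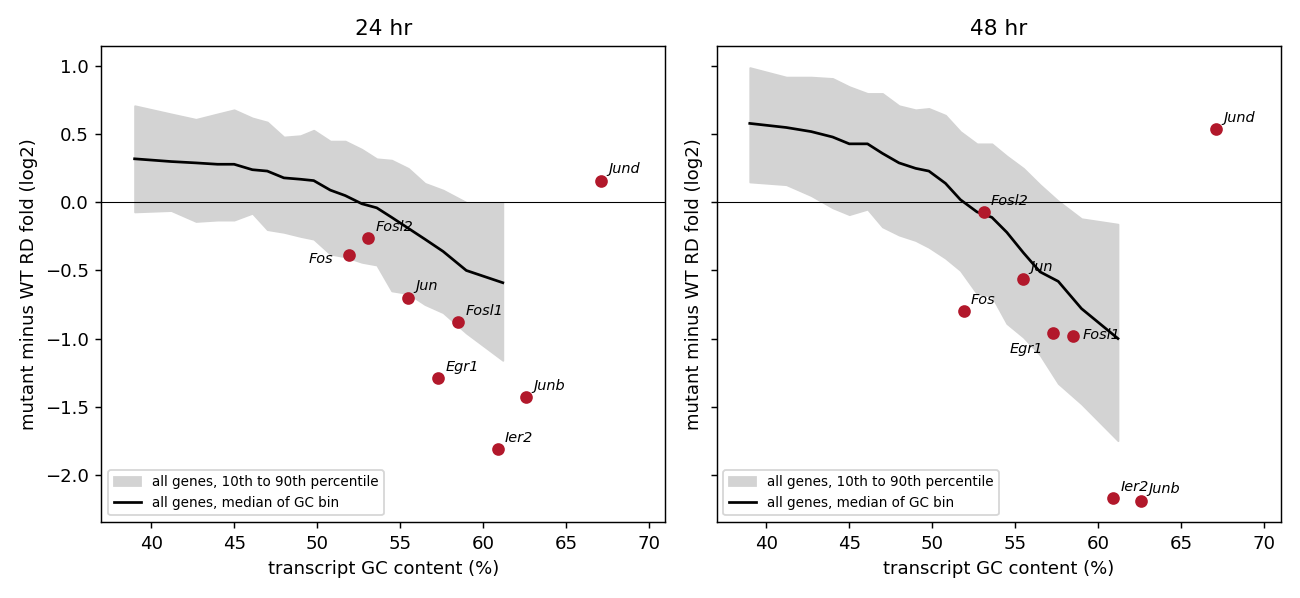
Difference in RD fold (mutant minus WT, log2) against transcript GC content in percent, at 24 hr (left) and 48 hr (right). Red points are the 8 genes, the black line is the median over all genes in each of 20 classes of GC content, and the grey band runs between the 10th and the 90th percentile. The line is lower at higher GC content. Ier2 and Junb lie lower than the end of the band at both times, and Jund lies higher.

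The start codon surroundings are shown because the differences above are in ribosome density and ribosomes select the start codon there. From the 9 bases before the start codon (in capitals) to the base after it, the contexts of the 2 genes with the largest RD differences and of Fosl1 and Jund read as follows (GENCODE M21, GRCm38, transcript strand).
Ier2: cgaacaagcATGg
Junb: gccgcccggATGt
Fosl1: gcccagggcATGt
Jund: aaggtggggATGg
A purine at the third base before the start codon together with G directly after it, the strong form of the context in vertebrates, was present in 3 of 8 genes (Ier2, Jund and Egr1), against 44.2% of genes. Ier2 and Jund hold both features and had RD differences of opposite sign. Upstream start codons, at which ribosomes can initiate before the main reading frame, were found in the 5′ UTRs of Egr1 (11), Fosl1 (3) and Fosl2 (1) and in no other of the 8, against 50.2% of genes with at least 1.

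Short-lived immediate early mRNAs carry AU-rich elements in their 3′ UTR, which decay factors bind. An ATTTA was present in the 3′ UTR of 7 of 8 genes, all but Ier2, against 67.2% of genes, and the longer TATTTAT in 5 of 8, against 28.8%. For Fos, Jun, Fosl2 and Junb, genes with low and high folds, the 30-base window with most ATTTA copies (the first on ties) reads as follows, with ATTTA in capitals.
Fos: ATTTATTTAttaagatggattctcagatat
Jun: ATTTAtaatcataggaaagATTTAgtaatt
Fosl2: ATTTAttttattATTTAttttaaatgttta
Junb: ATTTAacagggaggggagaagggggctgtc
The 3′ UTR of Fos holds 4 copies of ATTTA, that of Jun 4, that of Fosl2 8 and that of Junb 2. TATTTAT occurs 2 times in that of Fos, 1 time in Jun, 3 times in Fosl2 and 0 times in Junb. A link between these elements and the folds was not tested.

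RefSeq promoter windows (GRCm38.p6, 250 bases before to 50 after the annotated start) were matched for 5 of the 8 genes, Fos, Fosl2, Jun, Junb and Jund. Those of Junb and Fosl2, which were up, and of Fos, which was not, are shown so that their motifs can be compared. Junb lies at chr8:84978699-84978998 (minus strand), Fosl2 at chr5:32136222-32136521 (plus strand) and Fos at chr12:85473640-85473939 (plus strand), and capitals mark the motifs searched other than the GC box.
Junb: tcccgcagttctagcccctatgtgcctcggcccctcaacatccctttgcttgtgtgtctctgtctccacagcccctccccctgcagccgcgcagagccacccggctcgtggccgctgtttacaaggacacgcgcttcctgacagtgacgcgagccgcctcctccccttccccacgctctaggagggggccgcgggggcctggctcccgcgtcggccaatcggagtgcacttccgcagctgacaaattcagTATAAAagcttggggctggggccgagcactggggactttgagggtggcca
Fosl2: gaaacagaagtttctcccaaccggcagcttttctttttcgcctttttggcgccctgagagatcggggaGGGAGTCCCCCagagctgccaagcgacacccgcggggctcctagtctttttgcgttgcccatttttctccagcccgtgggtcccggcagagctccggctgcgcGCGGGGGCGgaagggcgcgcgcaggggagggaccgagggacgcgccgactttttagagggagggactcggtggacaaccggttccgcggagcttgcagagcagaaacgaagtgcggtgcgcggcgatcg
Fos: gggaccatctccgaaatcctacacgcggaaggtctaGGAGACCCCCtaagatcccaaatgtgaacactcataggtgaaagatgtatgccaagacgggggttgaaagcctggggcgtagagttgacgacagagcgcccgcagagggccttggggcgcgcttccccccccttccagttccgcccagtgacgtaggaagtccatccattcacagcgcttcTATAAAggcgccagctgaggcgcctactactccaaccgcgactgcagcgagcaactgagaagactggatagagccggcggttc
Motifs were searched on both strands. An NF-kB site was found in the windows of Fosl2, at position -182 from the start (with an overlapping match at -181), and of Fos, at -214, and 8.18% of 27025 promoters hold one. A TATA box (TATAAA) was found in Fos, at -33, and in Junb, beginning at position 1 of the RefSeq transcript, and 14.2% of promoters hold one. The GENCODE start of Junb, at 84978718, lies farther downstream, so the box precedes that start. An EGR site (GCGNGGGCG) was found in Fosl2, overlapping a GC box (GGGCGG). EGR sites are in 5.55% of promoters and GC boxes in 35.9%. GC boxes were also found in Fos and Jun. None of the 5 windows held an AP-1 site (TGANTCA, in 7.93% of promoters), a cyclic AMP response element (TGACGTCA, 1.88%) or a serum response element (1.57%) in these letters. Sites farther than 250 bases before the start were not searched. The Jund window, chr8:70697489-70697788, lies wholly before the GENCODE start of Jund at 70698949, so it does not cover the promoter at that start. The Fosl2 window lies wholly after the GENCODE start of Fosl2 at 32135801, so its motifs are not those of the promoter at that start.

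Around the 8 genes, the pathway was described by lists of other genes, at the 24 hr mutant mRNA fold, where 7.73% of all genes had a fold of at least 1 and 7.27% one of -1 or below. The lists were chosen with earlier results of these data known. Of 9 other dimer partners with a fold, of the Fos, ATF, BATF, JDP and Maf families, 0 had -1 or below, and the median was 0.60. In the authors' deposited table the mRNA folds were 0.96 for Mafg and 0.64 for Maff, both small Maf factors, 0.64 for Atf3, a stress-induced factor, 0.60 for Jdp2, a repressor of AP-1, and -0.15 for Atf7. These named genes stood between 0.60 and 0.96, apart from Atf7.

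Other immediate early genes moved in both directions. Of 31 with a fold, 6 had at least 1 and 5 had -1 or below, with a median of 0.10. The authors' deposited table gave mRNA folds of 4.20 for Ier3, an NF-kB target that affects survival, 2.05 for Gadd45a and 1.80 for Gadd45b, stress sensors upstream of p38 and JNK, and 1.81 for Myc, a growth regulator. At the other end, the authors' deposited table gave -3.70 for Nr4a3, an orphan nuclear receptor, and -2.40 for Ctgf, a matricellular protein.

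The genes that transmit the signal were counted in the same way. Of 8 genes of serum response factor, its ternary complex partners and the NAB corepressors of EGR factors, 1 had at least 1 and 0 had -1 or below, with a median of 0.11. In the authors' deposited table Nab1 had 1.02, Elk3, a ternary complex factor, had 0.64, and Elk4 had 0.26. Srf and Nab2 had -0.21 each and Mkl2 had -0.20 in the authors' deposited table. Of 28 MAP kinase cascade genes, 2 had at least 1 and 1 had -1 or below, with a median of 0.17. The authors' deposited table gave 2.26 for Map3k8, the kinase TPL2 that activates ERK downstream of TNFα and IL-1β, 1.14 for Mapk11 and 0.98 for Mapk13, both p38 kinases, and -1.17 for Map2k6, a kinase that activates p38. Mapkapk2 had 0.85 and Braf had -0.65 in the authors' deposited table. Of 9 MAP kinase phosphatases, 0 had at least 1 and 1 had -1 or below, with a median of -0.40. The authors' deposited table gave -1.91 for Dusp14, 0.93 for Dusp7, 0.66 for Dusp16, -0.64 for Dusp1, -0.58 for Dusp6 and -0.52 for Dusp5. Dusp1, Dusp5 and Dusp6 are themselves rapidly induced by MAP kinase signalling in many cells.

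Genes reported as AP-1 targets had the highest median. Of 21 with a fold, 14 had at least 1 and 1 had -1 or below, with a median of 2.67. The authors' deposited table gave 9.80 for Nts, the neurotensin precursor, 8.10 for Ccl2, a monocyte chemokine, 6.05 for Il6, 5.53 for Mmp3 and 5.25 for Mmp9, matrix proteases, and 4.72 for Ptgs2, the inducible cyclooxygenase. The gene of this list at -1 or below was Vim, the intermediate filament vimentin, with -1.27 in the authors' deposited table, named here after its value was seen. Several of these genes are also NF-kB targets, and the list does not separate AP-1 from NF-kB. The medians of the corresponding RPF folds at 24 hr were 2.62 for the reported targets, 0.30 for the dimer partners and 0.04 for the other immediate early genes.

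**Figure D4:**
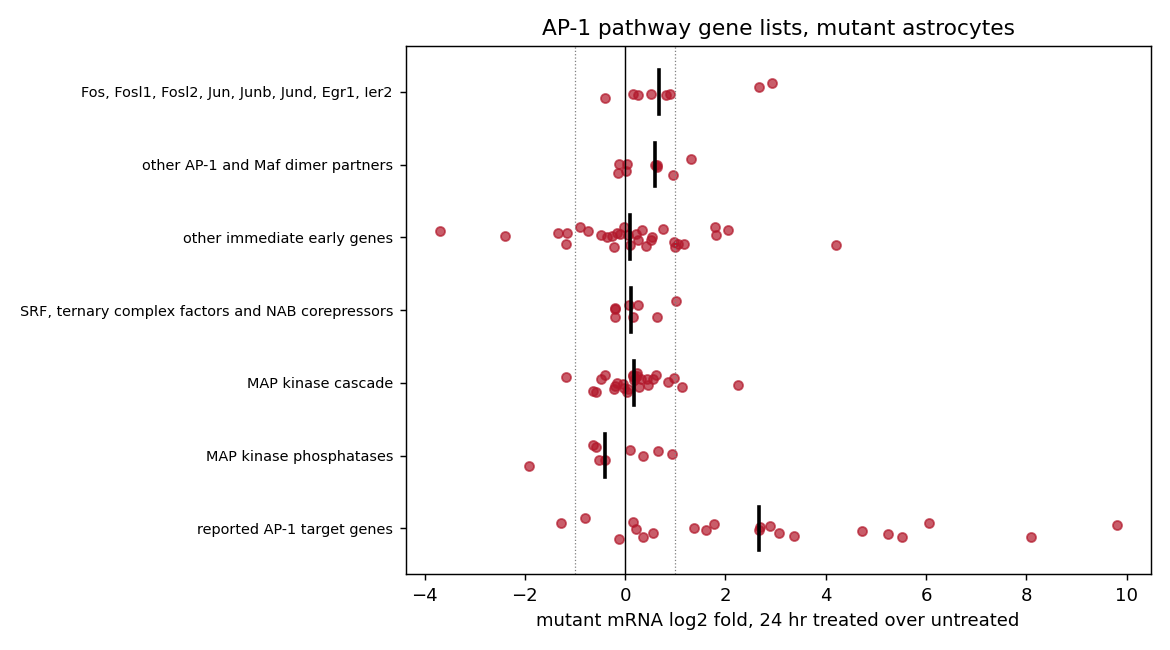
Mutant mRNA log2 fold at 24 hr, treated over untreated, for the 8 genes (top) and for 6 lists of pathway genes. Each point is a gene, bars are list medians and dotted lines mark a log2 fold of 1 in either direction. The reported AP-1 targets have a median of 2.67, and the other immediate early genes have points on both sides of 0.

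The genes whose pattern was most like that of each of the 8 were taken by Euclidean distance over the 8 mRNA and RPF folds, in log2 units, which describes likeness in this table only. Fosl1 was nearest to Msx2 (0.70), Dram1 (0.83) and Lhfpl2 (0.89), and Junb to Adgrb2 (1.02), Psmb10 (1.05) and Rhbdf2 (1.07). Ier2 was nearest to Spint2 (0.89), Mob3a (0.95) and Srm (0.97). Their nearest distances, 0.70 to 1.02, were all larger than those of the 5 other genes. Fosl2 was nearest to Atf4 (0.47), Slc2a10 (0.48) and Btg2 (0.49), Fos to Tmem44 (0.35), Cib2 (0.39) and Fbxo44 (0.42), and Jun to Ccdc184 (0.28), Tubb2a (0.29) and Ybx3 (0.35). Jund was nearest to Rbmxl1 (0.14), Vopp1 (0.17) and Atp6v1d (0.22), and Egr1 to Taf11 (0.11) and Adnp2 (0.14).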

How the data were processed

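The values are the authors' deposited log2 folds of treated over untreated cells, per the file headers, for 12205 genes in 12 columns; no counts per library were analysed. TopHat2, featureCounts and mm10 are named in the submitters' processing notes, with no version or role. The RNA-seq kit is stranded, per the labels' protocols; how the folds and RD were computed, and the depth per library, were not given in the sources used here. The WT columns were used as the authors' comparison only. Symbols damaged by the spreadsheet were repaired through their Ensembl identifiers, and 1 column, mutant RPF at 48 hr, has only 2 decimals. The 8 genes and the 6 pathway lists were chosen with earlier results of these data known. Named were the 8 genes, up to 6 genes of each list with the largest absolute mutant mRNA fold at 24 hr, and the 3 nearest genes of each of the 8; 2 genes that this rule takes are not reported here. Gene features came from GENCODE M21 (GRCm38, the same assembly as mm10), taking per gene the coding transcript whose reading frame is longest. GC-corrected folds subtract the median of each of 20 classes of transcript GC content. Genes were counted at or beyond a log2 fold of 1. No test was run. Python 3.11.15, pandas 2.3.3, numpy 2.4.6 and matplotlib 3.10.9 were used, and the procedures were tested on simulated data. None of the 8 genes has an IS value in the authors' deposited table of that score, so it was not used.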

Additional observations from a re-analysis of the deposited data

How the results depend on the processing

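Of 80 recomputed counts and medians over the 8 genes, 53 stayed within the tolerance set for them (0.25 log2 for medians). Of the 28 medians among them 2 changed sign, both under GC correction. At a log2 threshold of 0.5 the counts were 5 and 4 for mutant mRNA at 24 and 48 hr, 4 for mutant RPF at 24 hr, and 1 and 2 for mutant RD. For the differences between genotypes (mutant minus WT) they were then 3 for mRNA at 24 hr, 4 for RPF at 24 hr, and 5 and 6 for RD. At a threshold of 2 the counts were 0 for mutant RD at 48 hr and for the differences in mRNA at both times, RPF at 48 hr and RD at 24 hr. With GC-corrected folds the median mutant mRNA fold at 48 hr was 0.10 and the mutant RD count at 48 hr was 0. The mRNA difference then had medians of -0.11 and -0.53 and counts of 0 and 0, and the RD difference had medians of -0.47 and -0.29 and a count of 1 at 24 hr. With RPF minus mRNA in place of RD, the mutant median at 48 hr was -0.04 with a count of 0, and the median difference at 48 hr was -0.48. With the median of all genes subtracted, the RD difference at 48 hr reached -1 in 4 genes. The causes were not tested. Of 224 values of single genes, 43 moved by 0.25 or more and 10 changed sign, 9 of them under GC correction. The largest of these 10 was 0.48 before it was recomputed, the mRNA difference of Ier2 at 48 hr. Of the 24 nearest genes, 2 were also nearest over the 4 mutant folds and 13 over all 12 folds. No paired analysis was possible because the table holds 1 pooled fold per comparison, so leaving out a replicate could not be done either. The alternative for the IS value was not run.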
